A study of Drosophila melanogaster with 2 samples.

Results

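Neuronal effector genes encode the proteins that make a differentiated nerve cell work, as opposed to the transcription factors that specify it. The 10 genes described here were elav, fne and Rbp9, Syx1A, nSyb and Syt1, brp, cac and para, and CadN, a set of 10 among 13764 protein-coding genes of Drosophila melanogaster. The question asked of them was where Oc, the product of ocelliless (orthodenticle), was found near them. Each summit, the base of highest enrichment in a peak, was credited to whichever protein-coding gene had a start site closest to it. This rule gave the 10 genes 7 of the 5844 summits of the list cut by irreproducible discovery rate (the IDR list). It gave them 68 of the 30000 summits of the list called on both libraries together (the pooled list). The IDR list held exactly the 5844 pooled summits of highest signal. Membership in it therefore does not by itself show that a given summit was found in both libraries. The chromatin came from 1 group of 2 libraries, biological replicates 2 and 3, of whole embryos 2 to 14 hours old. All embryos were of a transgenic line that stably expressed Oc with GFP at its C terminus, and the description in the labels gives an antibody to GFP for the precipitation. The labels conflict here: their antibody field names oc, and their age field does not match the 2 to 14 hours of the source name, which was used. Whole embryos hold all cell types, so binding in few cells and weak binding in many cannot be told apart, and peaks carry no label of the cells they came from. The labels give both libraries the same donor line, and no line without the tag was analysed here.

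Oc is a homeodomain factor that patterns the head and the anterior brain and later acts in photoreceptors. The neuronal effector genes are described here by their roles in neurons, and their expression was not measured. Elav-family proteins bind RNA and steer splicing and 3' end choice in neurons. Syntaxin, Synaptobrevin and Synaptotagmin drive the fusion of synaptic vesicles, Bruchpilot builds the active zone where they fuse, the channel proteins Cacophony and Paralytic carry calcium and sodium currents, and N-cadherin holds growing axons and synaptic partners together.

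IDR summits lay at 4 of the 10 (40.0%, 95% Wilson interval 16.8 to 68.7), against 21.1% of all protein-coding genes. These were elav with 3 summits, Syx1A with 2, and fne and CadN with 1 each. Pooled summits lay at 5 of the 10 (50%, 23.7 to 76.3), against 42.3% of all genes, with 28 at CadN, 18 at fne, 14 at Syx1A, 7 at elav and 1 at para. The other 5 genes, Rbp9, nSyb, Syt1, brp and cac, had no pooled summit. The interval of each share contains the share of all genes for the pooled list and for the IDR list, and no test was made on these 10 genes.

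The 7 IDR windows are shown because they are the summits of these genes with the highest signal. Each is 101 bases of the plus strand of dm6 (RefSeq release 6 assembly) with the summit at its centre, and capitals mark the homeodomain core site TAATCC, or GGATTA where it lies on the minus strand. The first window lies just upstream of elav and has the highest signal.
elav chrX:523443-523543: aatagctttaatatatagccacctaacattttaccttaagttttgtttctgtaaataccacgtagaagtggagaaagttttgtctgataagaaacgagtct
Syx1A chr3R:24099116-24099216: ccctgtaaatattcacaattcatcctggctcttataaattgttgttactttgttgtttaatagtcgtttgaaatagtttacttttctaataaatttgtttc
elav chrX:522545-522645: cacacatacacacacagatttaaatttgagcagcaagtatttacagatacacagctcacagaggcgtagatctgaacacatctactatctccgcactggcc
elav chrX:525028-525128: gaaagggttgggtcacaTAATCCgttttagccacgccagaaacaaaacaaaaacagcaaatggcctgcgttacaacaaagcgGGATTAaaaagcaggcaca
Syx1A chr3R:24090452-24090552: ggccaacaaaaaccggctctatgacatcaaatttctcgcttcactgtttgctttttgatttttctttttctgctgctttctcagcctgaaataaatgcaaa
CadN chr2L:17740626-17740726: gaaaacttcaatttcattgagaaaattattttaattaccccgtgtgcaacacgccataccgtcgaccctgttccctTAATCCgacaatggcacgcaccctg
fne chrX:12923428-12923528: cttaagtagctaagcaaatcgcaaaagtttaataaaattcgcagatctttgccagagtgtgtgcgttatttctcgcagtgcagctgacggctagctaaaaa

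Capitals appear in 2 of the 7 windows, 1 at elav and 1 at CadN, and the window with the highest signal holds none. The windows at the strongest elav summit and the stronger Syx1A summit had GC contents of 31.7% and 26.7%, and the other 5 lay between 37.6% and 44.6%. The median over the 7 was 40.6%, and it was 40.6% over the whole IDR list.

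**Figure D1:**
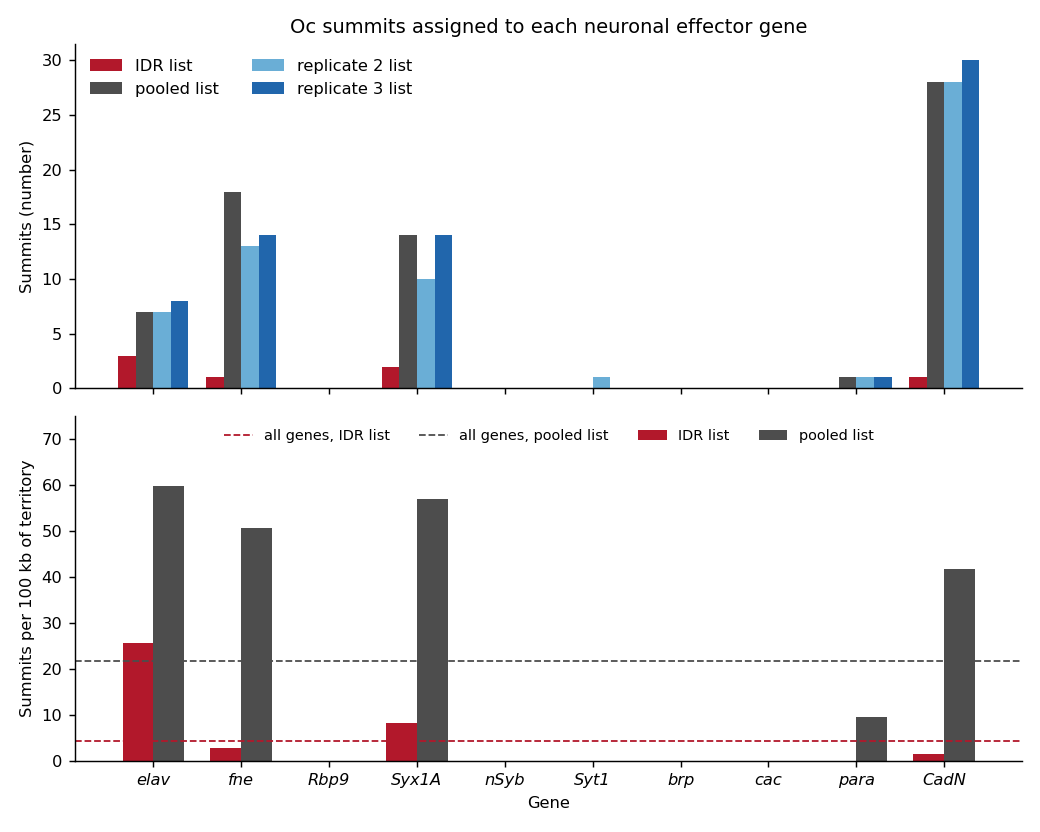
Upper panel: number of summits assigned to each gene (horizontal axis) in the IDR list, the pooled list and the lists of replicates 2 and 3. Lower panel: summits per 100 kb of territory (the bases nearer to the gene's start sites than to those of other genes) in the IDR and pooled lists, with dashed lines for all genes at 4.25 and 21.8. Bars stand at elav, fne, Syx1A and CadN in all 4 lists, at para outside the IDR list, at Syt1 in replicate 2 alone, and nowhere for Rbp9, nSyb, brp and cac.

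Counts were also divided by territory, the bases nearer to a gene's start sites than to those of any other protein-coding gene. The 10 territories together spanned 250.3 kb and held 2.80 IDR summits and 27.2 pooled summits per 100 kb, against 4.25 and 21.8 over all genes. In the pooled list the densities were 59.9 at elav, 57.0 at Syx1A, 50.6 at fne and 41.8 at CadN. All 4 stood above the density of all genes, and para, at 9.47, stood below it. The 4 are the genes with an IDR summit, while the density of all genes includes genes with no summit. In the IDR list elav had 25.7 and Syx1A 8.15 summits per 100 kb, above the 4.25 of all genes, while fne at 2.81 and CadN at 1.49 stood below. The territories of brp (32.7 kb) and cac (30.4 kb) were close to that of fne (35.6 kb) and larger than that of Syx1A (24.6 kb) and elav (11.7 kb). Those of Syt1, Rbp9, para and nSyb were 19.0, 13.7, 10.6 and 5.04 kb. The median territory of all genes was 4.33 kb.

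Of the RNA-binding genes, elav (FBgn0260400, X 509235 to 523226, minus strand) carried the strongest binding of all 10 genes. elav encodes the pan-neuronal RNA-binding protein used as the classic marker of fly neurons. Its leading peak spanned X 523340 to 523653, with the summit at 523493, 267 bp upstream of the elav start site. The signal, a value per peak given by the authors on a scale that was not stated, was 1091 in the pooled list, 543 in replicate 2 and 536 in replicate 3. The peak ranked 79 of 30000 in the pooled list, 94 in replicate 2 and 70 in replicate 3, and 98.7% of IDR peaks had a signal no higher. Both libraries thus placed it near the top of their lists, with summits 3 bp and 2 bp from the pooled one.

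The other IDR summits of elav lay on both sides of its start site. The summit at X 522595 lay 631 bp inside the gene, in an intron, with a pooled signal of 282 and ranks of 2276 in replicate 2 and 1262 in replicate 3. The summit at X 525078 lay 1852 bp upstream, with a pooled signal of 181 and ranks of 3793 and 4806. The 3 summits therefore kept the same order in both libraries. A further 4 pooled summits had signals between 54.4 and 107, at 1324 and 2566 bp upstream of the first start site and at 375 and 1422 bp upstream of the second. All 7 summits lay within 2.57 kb of an elav start site, and 5 of the 7 had a summit within 100 bp in both replicates.

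The elav locus is shared with other genes, which limits the assignment. The whole of it lies inside arg, the arginase gene, on the opposite strand, so all 7 summits also lay inside arg, and those upstream of the promoter counted as intronic for that reason. The noncoding gene lncRNA:enrr starts at the same base as elav. The next protein-coding start site, of CG4293, was 6356 bp from the leading summit.

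The window at X 525078 held TAATCC 2 times, on opposite strands, with 65 bp between the leftmost bases of the matches. With their surroundings of 20 bases, read 5' to 3' on their own strands, they are as follows.
elav plus-strand match, chrX:525038-525057: ggtcacaTAATCCgttttag
elav minus-strand match, chrX:525103-525122: tgcttttTAATCCcgctttg
A window with 2 or more matches was found at 17 of the 5844 IDR summits (0.291%), a count made after this window had been seen.

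fne (FBgn0086675, X 12917477 to 12950417, plus strand) encodes a paralogue of Elav and showed many weak summits in place of a strong one. Its 18 pooled summits had signals between 34.8 and 148 with a median of 64.8, and 16 of them lay inside the gene. The single IDR summit, at X 12923478, lay 5994 bp inside the gene in an intron, with a signal of 148, near the 146 at which the IDR list ends. Replicate 2 held this summit at rank 5403 with a signal of 83.4. Replicate 3 had no summit within 100 bp of it, and its nearest lay 220 bp away, beside the next pooled summit at X 12923684, where it ranked 8027. The second-strongest summit of fne, at X 12925996 (signal 144), showed the opposite: it ranked 5649 in replicate 3 and had no summit within 100 bp in replicate 2, whose nearest was 144 bp away. At 100 bp, then, each library supported a different one of the 2 leading fne summits.

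Promoters of fne also carried summits, below the IDR list. Its later start sites had a summit 446 bp upstream (X 12938071, signal 118, ranks 6709 in replicate 2 and 9420 in replicate 3) and another at 32 bp (X 12941304, signal 92.7, ranks 10323 and 14729). Both were found in both libraries. The summit at X 12914917, at a distance of 2560 bp, was a promoter summit by another gene: it lay 73 bp from the start site of the noncoding lncRNA:CR45626. Of the 18, 12 had a summit within 100 bp in replicate 2, 11 in replicate 3 and 8 in both.

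Rbp9 (FBgn0010263, 2L 2954762 to 2968434, plus strand), the remaining Elav-family gene, had no summit in any of the 4 lists. The pooled summit nearest to one of its 3 start sites was 10.2 kb away and was assigned to lilli, and the nearest IDR summit was 13.6 kb away, at gammaTub23C. Over all genes the median distance from a start site to the nearest summit was 2.73 kb in the pooled list and 8.88 kb in the IDR list.

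Among the genes of vesicle release, Syx1A (FBgn0013343, 3R 24101600 to 24105763, minus strand) had summits and nSyb and Syt1 had nearly none. Syx1A encodes the plasma membrane SNARE of the synapse. Its strongest peak spanned 3R 24099101 to 24099247 with the summit at 24099166, in a position 2434 bp beyond the 3' end of the gene and 6597 bp from its start site. The pooled signal was 326, with 161 in replicate 2 and 158 in replicate 3, and the ranks were 1343, 1632 and 1273. The other IDR summit, at 3R 24090502, lay 15261 bp from the start site and had a pooled signal of 170.1, with 60.0 in replicate 2 and 92.2 in replicate 3. Its ranks were further apart, at 8984 in replicate 2 and 3886 in replicate 3.

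Syx1A is nested in a long intron of eIF4EHP, a gene for a cap-binding protein that represses translation, on the same strand. All 14 of its pooled summits lay inside eIF4EHP, 3 of them also inside Syx1A, and 9 lay beyond the 3' end of Syx1A. Both IDR summits are therefore intronic to eIF4EHP, and the nearest start site is the only link to Syx1A. At the Syx1A promoter itself there was a summit 44 bp upstream (3R 24105807), with a signal of 142 and ranks of 6287 in replicate 2 and 3780 in replicate 3, just below the IDR list. A much stronger IDR peak of signal 1210 lay 3431 bp upstream of the same start site but was nearer to CG18428.

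nSyb (FBgn0013342, 3L 1630348 to 1637752, minus strand), which encodes the SNARE on the vesicle, had no summit in any list. The nearest one of either list was an IDR summit of signal 798 at 7.58 kb, assigned to alphaCOP. Syt1 (FBgn0004242, 2L 2772327 to 2799979, minus strand), which encodes the calcium sensor of release, had a summit in replicate 2 alone. It lay 1960 bp upstream (2L 2801939), ranked 21659 of 30000 with a signal of 29.3, and the nearest pooled summit was 2742 bp away. A pooled summit of signal 49.2 did lie within Syt1, in its 3' UTR at 2L 2772332, but was 0.556 kb from the start site of CG15399.

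The active zone gene brp (FBgn0259246, 2R 9503765 to 9541565, plus strand) and the calcium channel gene cac (FBgn0263111, X 11931280 to 11985087, minus strand) held no pooled summit anywhere in their bodies. Those bodies are 37.8 kb and 53.8 kb long. The nearest pooled summits were 6.26 kb from a brp start site, at Wnt2 with a signal of 43.6, and 15.3 kb from a cac start site, at fw with a signal of 126. The nearest IDR summits were 8.50 kb and 60.0 kb away. Measured from start sites, cac thus stood farthest from an IDR summit of the 10 genes. That summit, at X 11921130, lay beyond the 3' end of cac at X 11931280, so the distance includes much of the gene body.

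para (FBgn0285944, X 16455027 to 16533096, minus strand), which encodes the sodium channel of the nerve impulse, had a single weak summit. It lay 1845 bp upstream (X 16534941) with a pooled signal of 53.5. Its signals were 21.6 in replicate 2 and 26.0 in replicate 3, at ranks of 29681 and 21139 of 30000. The summits of both libraries fell within 3 bp of the pooled one. In the 78.1 kb of the gene there was 1 pooled summit, in the 3' UTR at X 16456822 (signal 75.1), and it was assigned to eIF4H1. Taken over the 6 genes without an IDR summit, bodies of 218 kb held 2 pooled summits. The bodies of the other 4, 182 kb in all, held 46. The genes were split by their IDR summits, which are part of the pooled list, so a contrast in this direction is partly built in.

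**Figure D2:**
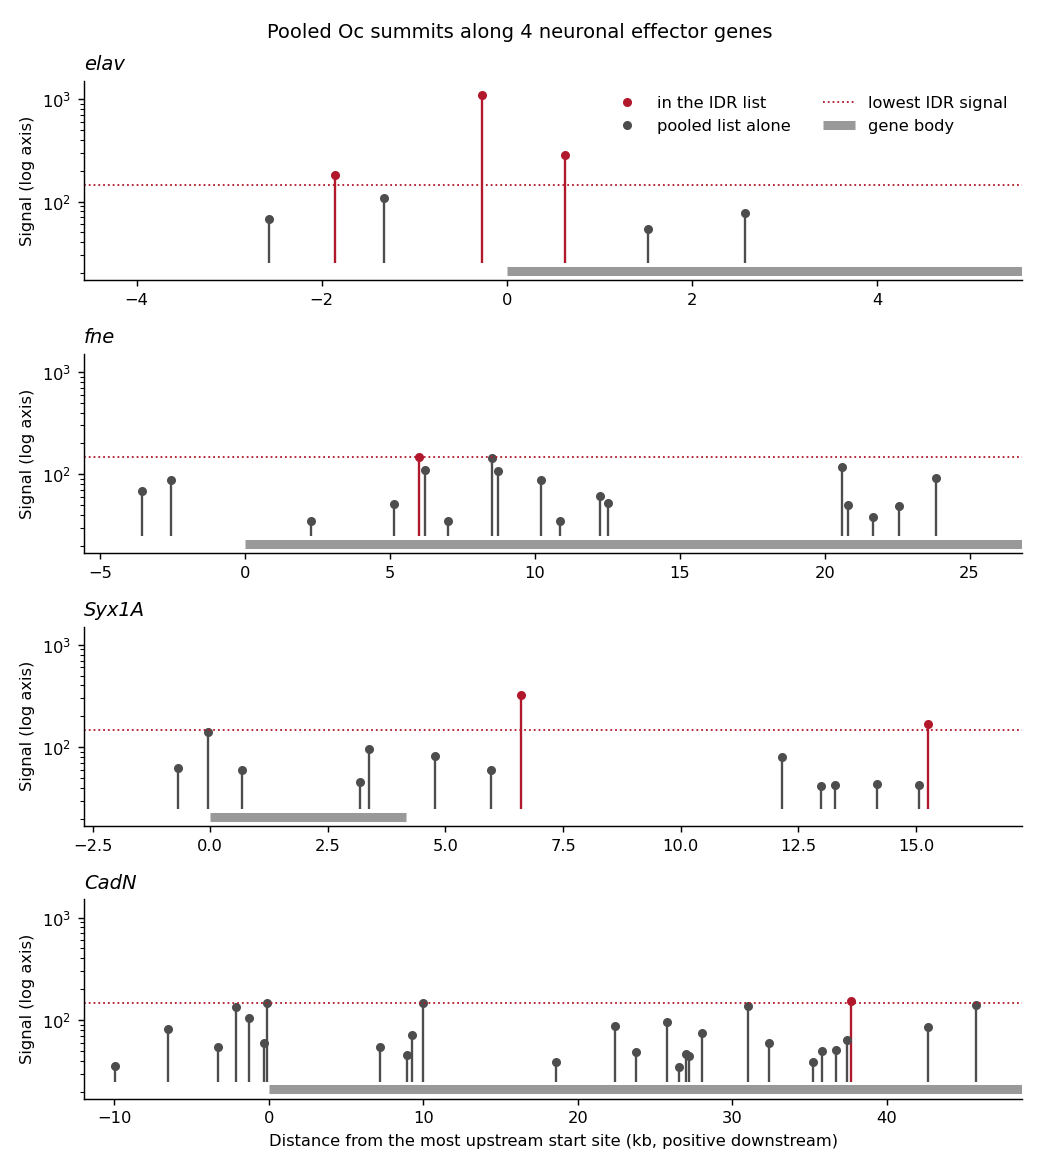
Pooled summits at elav, fne, Syx1A and CadN by distance from the most upstream start site of each gene (horizontal axes, kb, positive downstream) and signal (vertical axes, log scale). Red points are in the IDR list, grey points are in the pooled list alone, the dotted line is the lowest IDR signal of 146, and grey bars mark the gene body as far as the axis reaches. The summit of 1091 at elav stands above all others, those of fne and CadN lie near or below the line, and those of Syx1A continue past the end of the gene.

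CadN (FBgn0015609, 2L 17647053 to 17778340, minus strand), the gene of N-cadherin, had the most summits and little signal in each. Its 28 pooled summits ranged from 34.9 to 154 with a median of 62.0, and 116 of the 13764 genes had more. Its territory of 67.0 kb was also large, and 163 genes had a larger one. The single IDR summit was at 2L 17740676, in an intron 11670 bp from the nearer of its 2 start sites and 34534 bp from the next gene. Its signals were 154 in the pooled list, 72.8 in replicate 2 and 78.3 in replicate 3, at ranks of 5346, 6725 and 5209. The summits of the 2 libraries lay 8 bp and 4 bp from the pooled one.

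Several CadN summits lay just below the IDR list, whose last signal was 146. They included an intronic summit at 2L 17768354 (signal 145, ranks 7174 in replicate 2 and 5926 in replicate 3) and a promoter summit at 2L 17778465, 125 bp upstream of the first start site (signal 145, ranks 6509 and 7022). Another promoter summit lay 245 bp upstream of the second start site (2L 17752591, signal 94.5, ranks 9086 and 22486). Upstream of the gene, the summit at 2L 17780447 (signal 134) had a rank of 12622 in replicate 2 and 3363 in replicate 3. Of the 28 summits, 21 lay inside CadN and 7 upstream of it, and 15 had a summit within 100 bp in both replicates. A further 3 pooled summits inside CadN were nearer to the start site of CG43231.

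Across the 10 genes, 61 of the 68 pooled summits lay below the IDR list, and 7 of those had a signal within 10% of its end. The share in the IDR list was 10.3% (7 of 68, 5.08 to 19.8), against 19.5% of all pooled summits (5844 of 30000, 19.0 to 19.9). The median signal was 65.4, against 70.7 over all pooled summits. Intervals treat summits as independent, which summits of the same gene are not, and cover counting error alone. The authors' q-values, on the -log10 scale, were 3.92 for the 4 strongest of the 68 and 3.36 to 3.55 for the other 3 in the IDR list. For the 61 below the IDR list they ran from 3.25 down to 0.395, with 0.796 at para. Every member summit with a signal below the median of 65.4 had a value of 1.06 or less. Lower values on this scale are weaker evidence, so the counts of pooled summits include many that are weakly supported.

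The share of summits found in both libraries was close to that elsewhere, while the rank correlation of their signals was lower at these genes. Within 100 bp, 47 of the 68 summits were found in replicate 2 (69.1%, 57.4 to 78.8), against 75.5% of the other 29932 pooled summits. In replicate 3 it was 50 (73.5%, 62.0 to 82.6), against 71.7%, and both libraries held 36 (52.9%, 41.2 to 64.3), against 54.6%. Neither held 7 of them (10.3%), against 7.46%. Of the 10 promoter summits 9 were in both, a count with no share of all promoter summits set beside it, so it is not read as better agreement. Over the 36 summits in both, the signals of the 2 libraries had a Spearman rho of 0.639, and over 16369 such summits of the pooled list it was 0.758. These points share the 2 libraries and their common control alignment, and the values are a description.

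**Figure D3:**
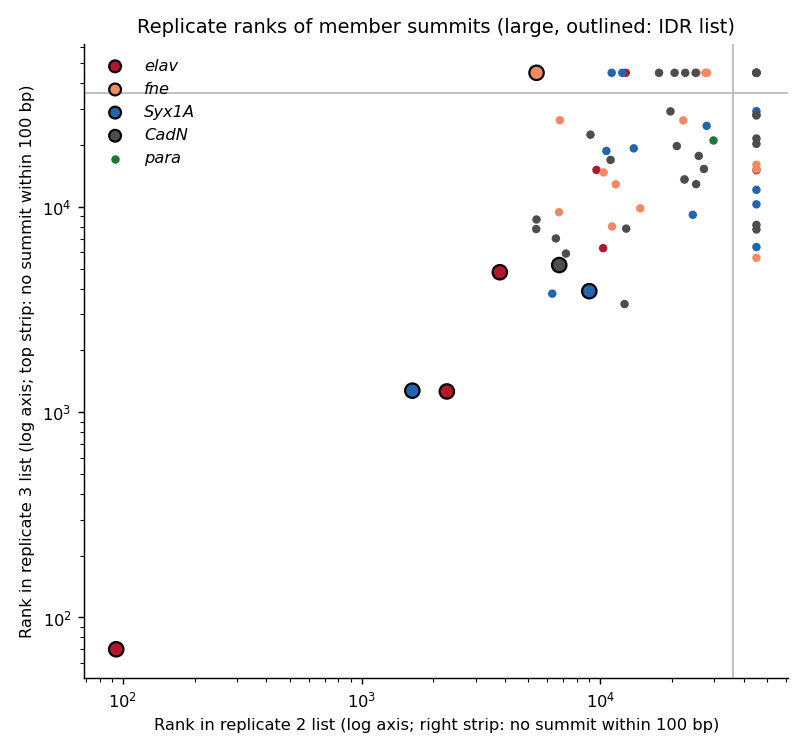
Rank of each of the 68 pooled summits in the list of replicate 2 (horizontal axis) and of replicate 3 (vertical axis), both on log axes, coloured by gene. Large outlined points are in the IDR list, and points in the right or top strip had no summit within 100 bp in that replicate. The leading elav summit stands alone at ranks 94 and 70, and the IDR summit of fne lies in the top strip.

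Most summits assigned to these genes were intronic. Introns held 47 of the 68 summits (69.1%, 57.4 to 78.8), against 48.0% of the other pooled summits, with introns of arg and eIF4EHP counted among them. Of the 47, CadN had 20, fne 12, Syx1A 10 and elav 5, and all 10 at Syx1A lay in eIF4EHP outside Syx1A. How much of these territories is intron was not set beside these shares. Promoters, taken as within 500 bp of any start site, held 10 (14.7%, 8.19 to 25), against 22.1%, and intergenic sequence held 6 (8.82%, 4.11 to 17.9), against 25.5%. No summit was in a coding exon, where 1.16% of the others were. Of the 7 IDR summits 1 was at a promoter, that of elav, and 6 were intronic, while 34.1% of all IDR summits were at promoters. The median distance from the assigned start site was 4.91 kb, against 3.27 kb over all pooled summits. It was 1.32 kb at elav, 5.56 kb at fne, 6.28 kb at Syx1A and 6.46 kb at CadN.

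TAATCC, the core site of Oc and other homeodomains with lysine in the recognition helix, was sought on both strands within 50 bp of each summit. It was in 6 of the 68 windows (8.82%, 4.11 to 17.9) and in 7 of 136 windows centred 500 bp to either side (5.15%, 2.52 to 10.2). Over all pooled summits the shares were 5.91% at summits and 3.40% in flanks, and both lay within the intervals found at these genes. In the IDR list 2 of the 7 windows held it (28.6%, 8.22 to 64.1), against 8.30% of all IDR windows, a share that lies within this interval. The 6 windows were 3 at CadN, 2 at fne and 1 at elav, and none of the 14 Syx1A windows held it. Those below the IDR list are shown as 20 bases around the site, which is in capitals.
fne, intron, signal 144, minus strand, chrX:12925952-12925971: aaaccttTAATCCaagtaat
fne, intron, signal 88.6, minus strand, chrX:12927661-12927680: cgttgtgTAATCCtggtgtg
CadN, intron, signal 87.3, plus strand, chr2L:17755978-17755997: aagtgctTAATCCcgctcat
CadN, promoter, signal 60.1, plus strand, chr2L:17778687-17778706: caattggTAATCCcgaaaac

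The other motifs searched in the same way were rare. TAAGCC was in 2 of the 68 windows (2.94%), against 6.55% of all pooled windows, and in no IDR window of these genes. TAATTA, which begins like TAATCC, was in 3 (4.41%), against 6.44%, among them the IDR window of CadN. GAGAGAG, the site of GAGA factor, was in 4 (5.88%), against 2.62%, none of them in the IDR list. GGTCACAC, known as Motif 1, was in 1 (1.47%), at the Syx1A promoter, against 0.493%. TATCGATA, bound by DREF, was in none, against 0.533%. A match is a description of the letters in a window and does not show what bound there.

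Other genes of the same processes were counted in the same way, with the 10 genes left in the lists to which they belong. Of 18 genes of vesicle fusion 3 had an IDR summit (16.7%), against 21.1% of all genes. They were Syx1A, the synaptotagmin gene Sytbeta (signal 299.6) and comt (signal 216), which encodes the ATPase NSF that takes SNARE complexes apart. Pooled summits lay at 7 of the 18 (38.9%), against 42.3% of all genes. Among the further genes of this list cpx had 9 pooled summits, while Snap25, Rop and unc-13, which encode core parts of the fusion machinery, had none. The territories of these genes were unlike, at 20.7 kb for cpx, 148 kb for Snap25, 1.52 kb for Rop and 41.2 kb for unc-13. None of 8 active zone genes had an IDR summit, a list too short to set apart from the 21.1% of all genes. Pooled summits lay at 2 of the 8, RhoGAP100F with 15 and Rim with 1. Among 19 genes of voltage-gated channels 6 had an IDR summit (31.6%), led by Ca-beta (signal 419.8), Ca-alpha1T (288) and the potassium channel subunit gene Hk (264). Pooled summits lay at 13 of the 19 (68.4%). In the small Elav family with its relatives 3 of 5 had an IDR summit, but elav and fne among them are genes of this report. Of the 2 genes of that list outside the report 1 had IDR summits, the sex determination gene Sxl with 4 (signal 316).

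Adhesion genes of the cadherin family stood at 12 of 16 (75%) in the IDR list, with 6.71 IDR summits per 100 kb. By strongest IDR signal ds (527), Cad96Ca (315) and stan (311) led, and CadN (154) was the lowest of the 12. Genes of transmitter synthesis and transport stood at 1 of 14 (7.14%), that of the vesicular monoamine transporter Vmat (signal 149), although 8 of 14 had pooled summits. Set against the 40.0% of the neuronal effector genes in the IDR list and 50% in the pooled list, regulators of proneural and neuroblast fate stood at 4 of 16 (25%) and 14 of 16 (87.5%), so the order of the shares differed between the lists. Their IDR summits were led by insc (signal 229), nerfin-1 (203) and pros (172). Glial genes stood at 8 of 12 (66.7%) in the IDR list and 11 of 12 (91.7%) in the pooled list, led by moody (641), pnt (292) and gcm2 (246). In IDR summits per 100 kb the neuronal effector genes had 2.80, proneural and neuroblast regulators 2.22 and glial genes 12.7. The lists were written with earlier results of these data known, their genes differ in territory, and no difference between lists was tested.

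**Figure D4:**
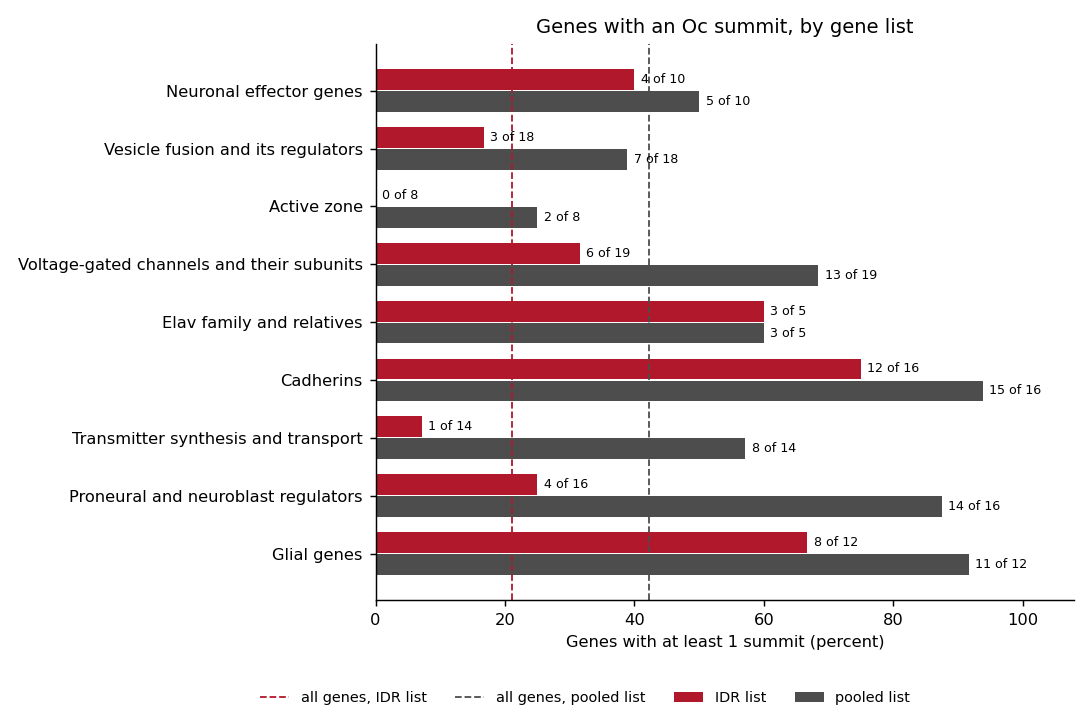
Share of genes with at least 1 summit (horizontal axis, percent) in the IDR list (red) and the pooled list (grey) for the neuronal effector genes and 8 further gene lists, with counts beside the bars. Dashed lines mark all protein-coding genes at 21.1% and 42.3%. Vesicle fusion, active zone and transmitter genes lie below the line for the IDR list, and cadherin and glial genes lie highest above it.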

How the data were processed

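Oc-GFP ChIP-seq of 2 embryo libraries was read from 4 deposited narrowPeak lists: 1 per replicate, 1 called on both alignments, and the IDR list derived from those. Per the descriptions deposited with the samples, alignments were to dm6 and both replicates shared 1 control alignment. The aligner, the peak caller, read filters and read numbers are not given in the sources used here, so depth is unknown. The deposited signal value is on an unstated scale and served to rank peaks within a list. The deposited q-value is on the -log10 scale. Deposited summit offsets, in bases from the interval start, gave summit positions, which are 1-based. The lists of both replicates and the pooled list held 30000 peaks each, so a missing summit means only that none was among them.

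Summits were assigned to start sites of protein-coding genes (Ensembl release 115, BDGP 6.54), of which 204 of 13968 had no territory of their own. The assignment was tested on made-up start sites. A summit counted as promoter first, then by the UTR, exon or intron it fell in, and otherwise as intergenic. Intervals are 95% Wilson intervals. The software was pandas 2.3.3 with numpy 2.4.6 under Python 3.11.15, with scipy 1.17.1 for statistics and matplotlib 3.10.9 for plots. With 1 group no comparison between conditions could be made. The genes, lists and choices were made with earlier results of these data known. All 10 genes, each of their IDR summits and the strongest pooled summit of each are named, with up to 3 genes of each further list by IDR signal. Other summits, and genes of the lists named without an IDR summit, were chosen after their values were seen. Of the listed symbols, Caps matched no gene name and VAChT had no territory.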

Additional observations from a re-analysis of the deposited data

How the results depend on the processing

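Of the 30 alternative values, 24 stayed within 1.5 times the reported one and 6 did not. With the more highly ranked 2922 peaks of the IDR list, 2 of the 10 genes (elav and Syx1A) and 3 summits were left, where the whole list gave 4 and 7. With summits counted only inside the gene body, the IDR summits numbered 3, 1 each at elav, fne and CadN. Promoters widened to 1000 bp held 16 summits in place of 10. TAATCC was within 25 bp of 1 summit, where 6 had it within 50 bp. Leaving out a replicate, by taking the list of the other alone, gave 3 to 5 windows with TAATCC, with 3 without replicate 3. It gave 7 to 9 summits among the 5844 strongest and 4 genes each time, 60 to 67 summits and 5 to 6 genes in the full lists, and 9 to 13 at promoters. The cause of these differences was not tested. Counting close summits once, an alternative chosen after seeing the data, left 59 summits and 5 with TAATCC. Reproducibility depended on the matching distance: 36 of 68 summits were in both replicates at 100 bp, 25 at 50 bp, 42 at 200 bp and 51 by overlap of intervals. No paired analysis was possible because both libraries belong to a single group. Depth per library is unknown, and 2 libraries give no estimate of the spread of a single peak beyond the pair of values shown.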

Other observations

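The lists of the replicates held 13 summits at these genes in replicate 2 and 17 in replicate 3 that were farther than 100 bp from any pooled summit. The strongest of them were at fne in replicate 2 (X 12927550, rank 9825, signal 56.1, 134 bp from a pooled summit) and at fne in replicate 3 (X 12929881, rank 12684, signal 41.9, 131 bp away). The farthest from a pooled summit was at CadN in replicate 2 (2L 17764045, 4298 bp away, rank 29579). At the first start site of fne, replicate 3 had a promoter summit 369 bp away (X 12917108, rank 25667, signal 21.1) that had no pooled counterpart within 2191 bp.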
